A study of Mus musculus with 6 samples.

Results

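The distal windows of the mouse autosomes were taken as the 1 Mb bins of chromosomes 1 to 19 whose start lies within the last 12 Mb before the highest coordinate of the chromosome. This rule uses position alone. It gave 12 bins per autosome and 228 of the 2666 bins of the position key, and 203 of the 228 had enough partners to be used. The study mapped contacts by dilution Hi-C with HindIII in embryonic mouse fibroblasts from 129xCast hybrids. Its 6 labelled libraries form 1 group of 2 embryos, each prepared as 3 technical replicates, and no treatment, sex or age is labelled. The authors deposited 1 pooled, balanced map, whose name was read as pairing Cast ends with 129 ends. The labels do not state that reading, and which libraries were pooled is not given in the sources used here.

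Mouse autosomes are telocentric. The centromere sits next to the lowest coordinates, and the highest coordinates run into the distal telomere, a repeat array capped by the shelterin proteins. Telomere repeats cannot be placed uniquely on the genome, so a map of this kind shows the unique sequence next to the telomere and not the array itself. In the arrangement of chromosomes known as Rabl, which anaphase leaves behind, centromeres lie toward one side of the nucleus and distal ends toward the other.

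The 203 distal bins held an end of 333260 recovered contacts, which are the whole numbers of read pairs that underlie the balanced values. Expected contacts are the product of a factor for each bin, fitted to the total that the bin has on other chromosomes, and observed/expected is the ratio of the summed contacts to that product. The map has no replicate. Every interval is a 95% exact interval and every p-value a test against counting error only, so neither covers the spread between embryos. A pair of distal bins on different autosomes had a mean of 0.845 contacts, and 45.9% of the 19506 pairs had none, so single pairs carry little information and the results rest on sums.

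Distal windows of different autosomes met one another more often than expected, met the centromere-proximal windows less often, and met the inner bins at the expected rate. The fit holds each bin's total on other chromosomes, so an excess with some partners goes with a deficit among others. The values below are therefore linked, and their p-values are not separate evidence. Distal bins had 16475 contacts with each other where 15446 were expected, an observed/expected of 1.07 (1.05 to 1.08, exact Poisson p = 2.62e-16). With the proximal windows, the bins that start in the first 12 Mb of another autosome, they had 20213 contacts and a value of 0.936 (0.923 to 0.949, exact Poisson p = 1.22e-21). With the inner bins, which lie in neither window, the value was 0.997 (0.993 to 1.00). Inner bins met each other at 1.00 (0.998 to 1.00), and the distal value was 1.07 times that (1.05 to 1.08, exact conditional binomial p = 5.49e-16). Adjusted over the 12 summary tests made here, these p-values were 1.05e-15, 1.47e-20 and 1.65e-15. Inner bins are 1873 of the 2341 kept bins, so the fit itself holds their value near 1. The ratio to inner bins is therefore no test independent of the distal value. Over listed pairs alone, in the balanced signal, the distal value was 0.933 and its ratio to inner bins 0.941, the other direction. That setting also departed from 1 where the summed contacts did not. It gave 0.948 with inner bins and 1.12 with X outside its distal end, against 0.997 and 1.00 in summed contacts. The reversal is therefore not specific to contacts among distal windows. The value with proximal windows was 0.964 (0.917 to 1.01) and not past the threshold with 5 Mb windows, and the value with inner bins passed it at 0.996 with 20 Mb windows. Proximal windows met each other at 1.08 (1.06 to 1.11), and the distal value was 0.985 times the proximal one (0.959 to 1.01), so no difference between both kinds of end was detected with 12 Mb windows. Other windows gave a ratio below 1 that passed the exact test, at 0.824 (0.743 to 0.914) with 5 Mb, 0.975 (0.956 to 0.995) with 15 Mb and 0.978 (0.964 to 0.993) with 20 Mb, while 10 Mb did not. At 12 Mb the filter kept 155 of 228 proximal bins, against 203 of 228 distal bins. Both kinds of end are thus compared over unlike numbers of bins, and the kept bins of the other windows are not given here. The distal end of X, which is no autosome, had 1592 contacts with the autosomal distal windows and a value of 1.05 (1.00 to 1.10), against 1.00 (0.983 to 1.02) for the rest of X. The ratio of the X values was 1.05 (0.996 to 1.11), an interval that includes 1.

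The contacts of the distal windows rose along the partner chromosome from its proximal to its distal end. Partners were grouped into 10 equal parts of their chromosome. The part beside the centromere met the distal windows of other autosomes at 0.942 (0.930 to 0.954), the second part at 0.964 (0.953 to 0.975), the fifth at 0.984 (0.973 to 0.995), the seventh at 1.01 (0.996 to 1.02) and the ninth at 1.04 (1.03 to 1.05). The part at the distal end met them at 1.06 (1.05 to 1.08). Each of the 10 parts had a higher value than the one before it, although the intervals of most neighbours overlap. The values crossed 1 between the sixth part, at 0.994, and the seventh. The fit holds each bin's total, so values above 1 in some parts go with values below 1 in others. A crossing as such is therefore no separate result.

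By distance from the end in bands of 3 Mb, the value was highest in the outermost band and was still above 1 well inside the chromosome. By single Mb it did not peak in the last one, which had 1.08 (1.01 to 1.17) on 8 kept bins. The second Mb had 1.10 (1.06 to 1.14). Bins starting 0 to 3 Mb from the end met the distal windows of other autosomes at 1.09 (1.06 to 1.12), those at 3 to 6 Mb at 1.08 (1.06 to 1.10), those at 6 to 9 Mb at 1.06 (1.04 to 1.08) and those at 9 to 12 Mb at 1.05 (1.03 to 1.07). The intervals of the first and last of these bands overlap. Just inside the border, at 11 to 12 Mb, the value was 1.06 (1.02 to 1.10), and just outside it, at 12 to 13 Mb, also 1.06 (1.02 to 1.10). The interval lay above 1 in each of the 3 Mb bands out to 33 Mb, where the value was 1.03 (1.01 to 1.05). From 33 to 36 Mb it was 1.01 (0.992 to 1.04) and included 1.

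**Figure D1:**
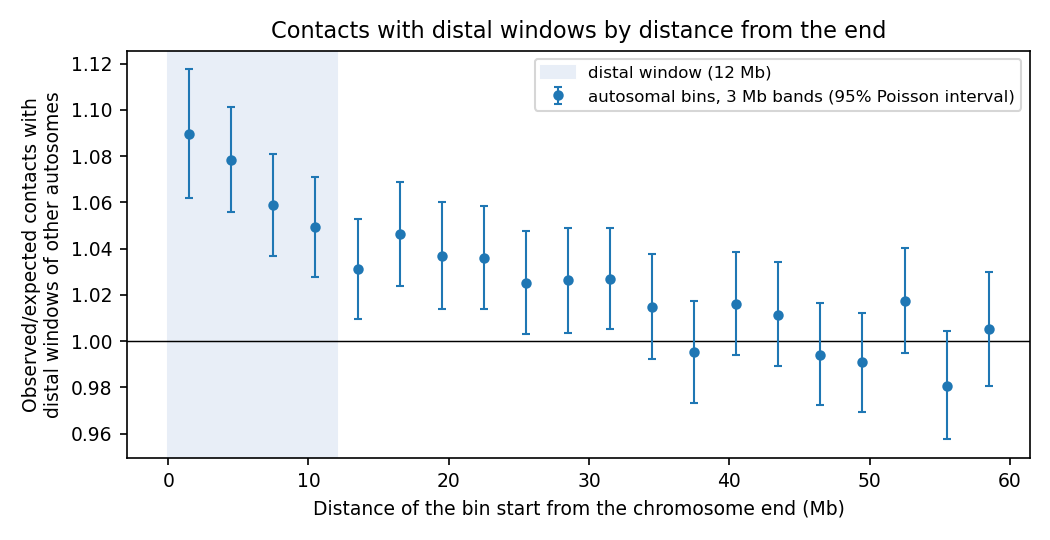
Observed/expected contacts of autosomal bins with the distal windows of other autosomes (y axis) by distance of the bin from the chromosome end in bands of 3 Mb (x axis); points are sums over all kept bins of a band and bars are 95% Poisson intervals. The values fall from 1.09 in the outermost band to 1.05 at the inner side of the shaded 12 Mb window, and reach 1 near 36 Mb.

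Within the windows, pairs of bins that both lay in the outer 3 Mb had 539 contacts and a value of 1.14 (1.05 to 1.24). Bins of the outer 3 Mb met those at 3 to 6 Mb at 1.11 (1.06 to 1.17), those at 6 to 9 Mb at 1.08 (1.03 to 1.13) and those at 9 to 12 Mb at 1.05 (0.996 to 1.10). Pairs that both lay at 9 to 12 Mb had 1308 contacts and a value of 1.07 (1.01 to 1.13). The outer value was 1.07 times that of the inner side (0.963 to 1.18, exact conditional binomial p = 0.213), so a gradient between the extremes of the window was not detectable at this depth. Bins at like distance from the end, within 1 Mb of each other, met at 1.06 (1.02 to 1.10). Bins whose distances differed by 2 to 3 Mb met at 1.10 (1.05 to 1.14), and by 3 to 6 Mb at 1.08 (1.05 to 1.11). The value at a difference under 1 Mb was 1.01 times the value at 6 Mb or more (0.964 to 1.07, exact conditional binomial p = 0.600). A preference for equal distance from the end was not detectable.

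By autosome, 18 of the 19 distal windows had a value above 1 with the other 18 windows, and the interval lay above 1 for 11. After Benjamini-Hochberg adjustment over the 19 windows, 9 had an exact Poisson p under 0.05. The highest was chromosome 4, with 1297 contacts and 1.16 (1.09 to 1.22), followed by chromosome 2 with 1593 contacts and 1.14 (1.08 to 1.20) and chromosome 1 with 1991 contacts and 1.12 (1.08 to 1.18). The intervals of these 3 overlap, so their order is not resolved. The lowest was chromosome 19, with 1174 contacts and 0.970 (0.915 to 1.03), then chromosome 9 with 1.03 (0.980 to 1.08) and chromosome 8 with 1.03 (0.984 to 1.08). The remaining 13 windows lay between 1.03 and 1.10. Each contact counts for both of its autosomes, so these values are not separate observations. The window of chromosome 4 kept 9 bins, without those from 144000001 to 147000000 at its inner side. That of chromosome 19 kept 8, without those from 58000001 to the end.

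With proximal windows of the other autosomes, 17 of 19 distal windows had a value below 1, and the interval lay below 1 for 12. Chromosome 2, among the highest with distal partners, had the lowest value with proximal partners, 0.858 (0.800 to 0.919). Chromosome 3 followed with 0.887 (0.836 to 0.940). The exceptions were chromosome 18 at 1.00 (0.946 to 1.06) and chromosome 19 at 1.07 (1.00 to 1.14). Chromosome 19 is the shortest autosome, at 61.3 Mb, and its window covers 19.6% of its length, against 6.09% on chromosome 1. Only 8 bins of that window were tested, since those from 58000001 to the end were left out for low coverage. Chromosome 19 was also the only autosome whose distal window met proximal windows at a higher value than distal windows. With inner bins all 19 windows had intervals that included 1, and their values ran from 0.988 to 1.01.

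**Figure D2:**
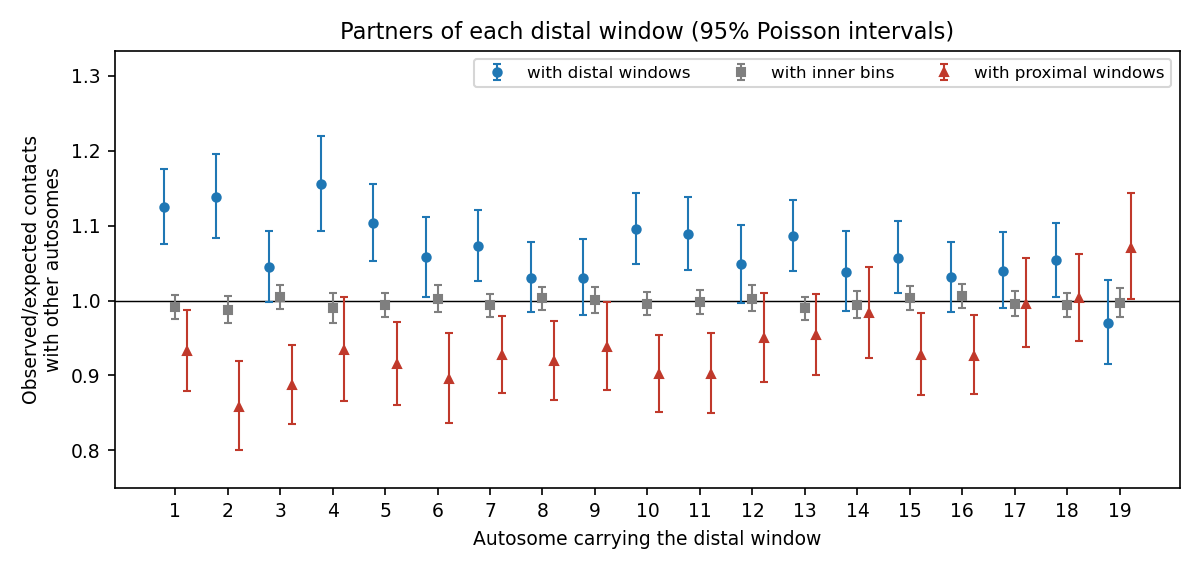
Observed/expected contacts (y axis) of the distal window of each autosome (x axis) with distal windows (circles), inner bins (squares) and proximal windows (triangles) of the other autosomes; bars are 95% Poisson intervals. Distal partners lie above 1 for 18 of 19 windows and proximal partners below 1 for 17, while chromosome 19 runs the other way with 0.970 and 1.07. The window of chromosome 19 is shown without its outermost bins, which were left out for low coverage.

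Each autosome was then paired with every other, and the distal windows of 118 pairs had a value above 1. A pair had 41 to 162 contacts, with a median of 97, and values ran from 0.726 to 1.47 with a median of 1.06. In an exact two-sided Poisson test with Benjamini-Hochberg adjustment over all pairs of autosomes, 4 pairs were called higher, which is 2.34% of them, and 0 were called lower. Unadjusted, 19 pairs had a higher and 3 a lower value at p under 0.05. The windows of chromosomes 2 and 3 came first, with 125 contacts where 85.2 were expected and a value of 1.47 (1.22 to 1.75, exact Poisson, adjusted p = 0.0112). Chromosomes 1 and 4 had 98 contacts where 67.0 were expected and a value of 1.46 (1.19 to 1.78, exact Poisson, adjusted p = 0.0258). Chromosomes 1 and 2 had 117 contacts and 1.39 (1.15 to 1.66, exact Poisson, adjusted p = 0.0369). The other called pair was chromosomes 7 and 13, sixth by value, with 162 contacts where 120.1 were expected and 1.35 (1.15 to 1.57, exact Poisson, adjusted p = 0.0258).

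These calls depended on the length of the window. With 10 Mb windows chromosomes 1 and 2 (1.56) and 7 and 13 (1.48) were called, and with 15 Mb windows chromosomes 1 and 4 alone (1.38). All 4 kept a value above 1 in both, the lowest being 1.22 for chromosomes 7 and 13 at 15 Mb. The next highest at 12 Mb were chromosomes 4 and 12 with 1.37 (1.08 to 1.71) and 2 and 5 with 1.36 (1.12 to 1.65), which were not called. At the other extreme chromosomes 2 and 19 had 41 contacts where 56.5 were expected, a value of 0.726 (0.521 to 0.985). Next lowest were chromosomes 3 and 12 (0.752), 4 and 17 (0.761), 16 and 18 (0.767), then 6 and 19 (0.775). None of these 5 pairs was called. Over whole chromosomes the pairs ran from 0.969 to 1.04. For chromosomes 2 and 3 the whole-chromosome value was 1.01, for 1 and 4 it was 0.998, for 1 and 2 it was 1.02 and for 7 and 13 it was 1.00. Across all pairs of autosomes the window value had a Pearson's r of 0.118 and a Spearman's rho of 0.120 with the whole-chromosome value, a description of pairs that share chromosomes.

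**Figure D3:**
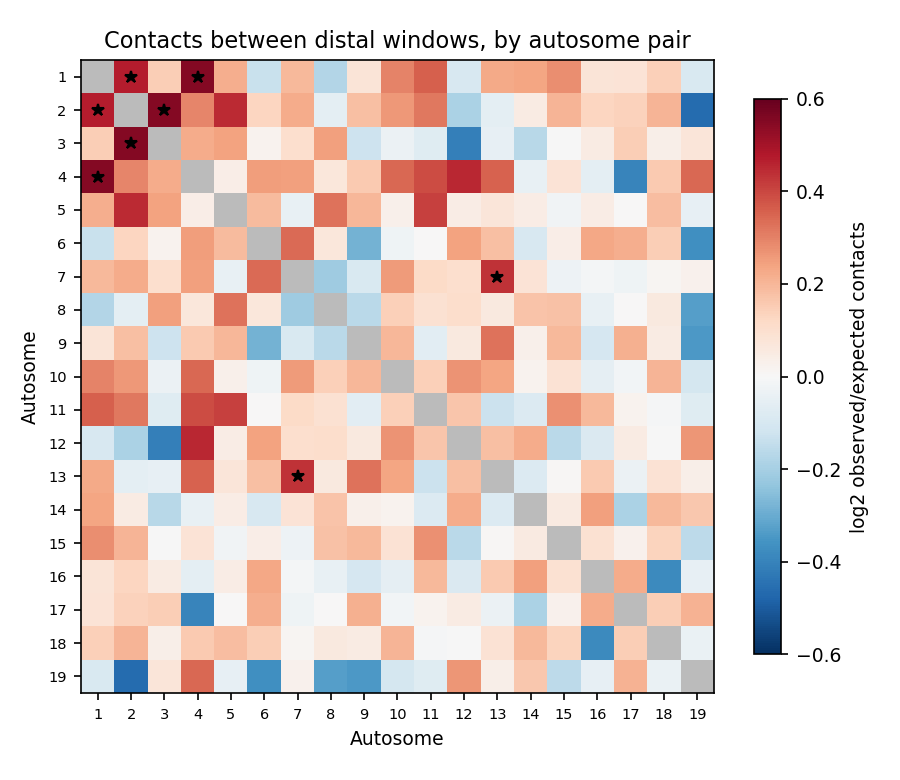
Contacts between the distal windows of each pair of autosomes as log2 observed/expected (colour), for autosomes 1 to 19 on both axes; the diagonal is left grey and stars mark the 4 pairs called in the exact Poisson test after adjustment. The stars join chromosomes 1 with 2, 1 with 4, 2 with 3 and 7 with 13, and the upper left corner, which holds the longest autosomes, is above 0 throughout.

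The highest values in this matrix lay among the long autosomes. The grouping by length below was chosen after the pair values had been seen, so it is given with counting intervals and no test. Its cut separates chromosome 5, at 152.537 Mb, from chromosome 7, at 152.525 Mb. Other cuts were not tested, so the values below hold for this cut alone. Distal windows of the 5 longest autosomes, 1 to 5, had 1012 contacts with each other where 808.7 were expected, a value of 1.25 (1.18 to 1.33). All 10 of their pairs lay above 1, the lowest at 1.03, and 3 of the 4 called pairs were among them. Windows of the 5 longest met those of the middle 9 autosomes at 1.08 (1.05 to 1.11) and those of the 5 shortest, 15 to 19, at 1.05 (1.01 to 1.09). Windows of the middle 9 met each other at 1.07 (1.04 to 1.11). Windows of the 5 shortest had 902 contacts with each other and a value of 1.02 (0.955 to 1.09), with 6 of 10 pairs above 1. Inner bins showed no such range, with 1.00 (0.998 to 1.01) among the 5 longest and 1.00 (0.992 to 1.02) among the 5 shortest. They are most of the kept bins, so the fit draws their values toward 1. Proximal windows had 1.06 (0.976 to 1.15) among the longest, 1.14 (1.09 to 1.20) among the middle 9 and 1.04 (0.944 to 1.14) among the shortest.

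The value among the 5 longest was 1.18 (1.09 to 1.28) without chromosome 2, the lowest on leaving out one of them, and 1.30 without chromosome 5. It was 1.35 (1.16 to 1.55) with windows of 5 Mb, 1.26 with 10 Mb, 1.16 (1.10 to 1.22) with 15 Mb and 1.11 (1.07 to 1.15) with 20 Mb. Among the 5 shortest it was 0.961 (0.735 to 1.23) with 5 Mb windows, 1.04 (0.985 to 1.09) with 15 Mb and 1.02 (0.985 to 1.06) with 20 Mb. A matched compartment score, described below, left 1.25 and 1.02. Over all pairs of autosomes the window value had a Pearson's r of 0.337 and a Spearman's rho of 0.273 with the summed length of the autosomes, and −0.132 and −0.110 with their difference in length.

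**Figure D4:**
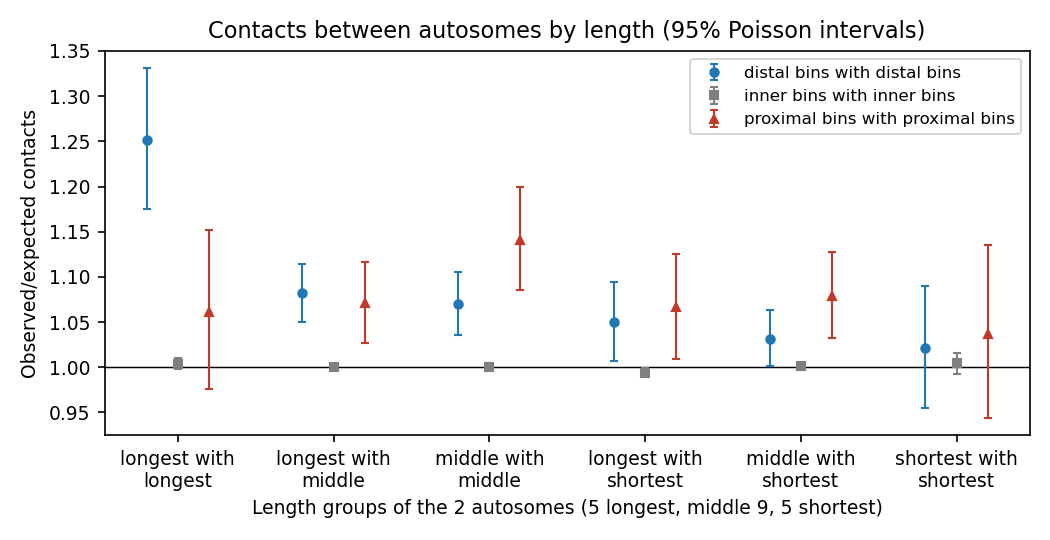
Observed/expected contacts (y axis) between autosomes grouped by length (x axis), for distal with distal, inner with inner and proximal with proximal bins; points are sums over all pairs of the groups and bars are 95% Poisson intervals. Distal bins reach 1.25 among the 5 longest autosomes and 1.02 among the 5 shortest, while inner bins stay near 1 in every group.

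No single distal bin stood apart beyond counting error after adjustment, but as a group they lay above 1. Every kept autosomal bin was tested for its contacts with the distal windows of other autosomes, and 0 of the 203 distal bins were called higher or lower. Over all 2231 autosomal bins the exact Poisson test with adjustment called 0 higher (0%) and 1 lower (0.0448%), an inner bin of chromosome 19. Without adjustment 27 of 203 distal bins were higher at p under 0.05, which is 13.3%, and 0 were lower, against 3.77% higher and 3.5% lower over all autosomal bins. Of the distal bins 155 (76.4%) had a value above 1, against 49% of all autosomal bins. The median was 1.07 in distal bins, 0.994 in inner bins and 0.936 in proximal bins. Values of single distal bins ran from 0.836 to 1.35, each on a median of 164 contacts.

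The outermost bin of chromosome 2, from 181000001 to 181748087 on mm9, had the highest value, with 121 contacts where 89.4 were expected and 1.35 (1.12 to 1.62). Its neighbour from 180000001 to 181000000 was sixth with 193 contacts and 1.30 (1.12 to 1.50). The outermost bin of chromosome 18, from 90000001 to 90772031, had 91 contacts and 1.35 (1.09 to 1.66). The third was on chromosome 10 from 123000001 to 124000000, with 142 contacts and 1.33 (1.12 to 1.57), and the fourth on chromosome 7 from 148000001 to 149000000, with 168 contacts and 1.32 (1.12 to 1.53). Next came chromosome 11 from 115000001 to 116000000 with 1.31, chromosome 5 from 149000001 to 150000000 with 1.25, chromosome 11 from 112000001 to 113000000 with 1.24, chromosome 10 from 128000001 to 129000000 with 1.24 and chromosome 4 from 152000001 to 153000000 with 1.24. These 10 bins lie between the last and the 10th Mb from the end and on 7 autosomes, and every one has an interval above 1. The lowest adjusted p among all distal bins in the exact Poisson test was 0.348. The lowest values were those of chromosome 1 from 187000001 to 188000000 (0.836, 0.660 to 1.05), chromosome 9 from 121000001 to 122000000 (0.879), chromosome 19 from 52000001 to 53000000 (0.888), the outermost bin of chromosome 3 (0.889) and chromosome 15 from 98000001 to 99000000 (0.894). The intervals of these 5 bins include 1.

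No single pair of distal bins passed the test over all pairs of the map. Of 2594953 pairs on different chromosomes, 2 were called (7.71e-05%), and 0 of the 19506 pairs of distal bins. Unadjusted, 3.32% of the pairs of distal bins had a p under 0.05, against 2.76% of all pairs. The lowest p belonged to the chromosome 3 bin starting at 153000001 and the chromosome 5 bin starting at 141000001, which shared 6 contacts where 0.586 were expected (exact Poisson, adjusted p = 0.912). Then came chromosomes 10 and 13, both in the bin 2 Mb from the end, on 6 contacts where 0.673 were expected. The chromosome 4 bin starting at 149000001 also had 6, with the chromosome 12 bin starting at 112000001. The chromosome 5 bin starting at 148000001 had 7 with the chromosome 15 bin starting at 94000001, and no pair of distal bins had more. The chromosome 2 bin starting at 172000001 had 5 with the chromosome 5 bin of the first pair. The adjusted p of these last 4 pairs was 1 in the exact Poisson test. One of the called pairs held a distal bin, on chromosome 18 starting at 86000001. Its partner was an inner bin of chromosome 1 starting at 115000001, and they shared 10 contacts where 0.751 were expected (exact Poisson, adjusted p = 0.0104).

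Kept distal bins had a higher median coverage than kept inner bins, with fewer contacts at the very end. The 203 kept bins had a median of 1774 contacts (quartiles 1537 and 2076), inner bins 1699 and proximal bins 1650, so that distal over inner was 1.04. In 15 of 19 autosomes the distal window had the higher median, with 2042 against 1696 on chromosome 1 and 1913 against 1569.5 on chromosome 14. On chromosomes 4, 6, 10 and 18 it had the lower, with 1572 against 1766 on chromosome 6. The last bin of a chromosome is cut short by the chromosome's end, with lengths from 0.0762 to 0.993 Mb, and only 8 of 19 were kept, with a median of 839.5 contacts. At 2 Mb from the end the median was 1420, at 4 Mb 1975 and at 10 Mb 2005.

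The filter left out 25 of the 228 distal bins, against 7.55% of inner and 32.0% of proximal bins. Of these, 11 were last bins and 15 lay within 3 Mb of the end. Windows kept 8 to 12 bins, and 6 autosomes kept all 12. Beyond the last bins, the losses fell on runs of neighbours: 3 bins of chromosome 2 from 175000001 to 178000000, of which the first held no contact, 3 of chromosome 4 from 144000001 to 147000000, the outer 3 of chromosome 14 from 123000001, and the outer 4 of chromosome 19 from 58000001. Single inner bins of the windows were lost on chromosomes 6, 9 and 17. The value among distal windows was above 1 at either coverage. Pairs of distal bins with both bins at or above the autosomal median of 1705 contacts had a value of 1.06 (1.04 to 1.08), those with both below it 1.11 (1.05 to 1.16), and inner bins in the same strata 1.00 and 1.00. The fit draws these inner values toward 1.

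The compartment position of each bin was read from the first eigenvector of its contacts with other chromosomes, which sorts chromatin into regions that prefer their own kind. Pairs of distal bins were set to their expected value before this step, so the contacts among distal windows did not enter the score. The sign is arbitrary and was set to be higher on chromosome 19 than on X. Without gene positions on mm9, neither side is called active. Scores of neighbouring distal bins correlated at 0.520 over 181 pairs, and 0.524 over all bins.

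Distal bins were spread over the whole range of scores. Of 203, 57 lay in the highest quintile of the map, or 28.1% (exact binomial interval 22.0 to 34.8), against 20.9% of inner and 10.3% of proximal bins. In the lowest quintile there were 44, or 21.7% (16.2 to 28.0), against 19.9% of inner bins. Bins are neighbours and not replicates, so these shares were not tested. The windows differed. That of chromosome 8 had 7 of 12 bins in the highest quintile and a median score of 0.94 SD, and that of chromosome 4 had 5 of 9 and 0.74. The windows of chromosomes 2 and 18 had 0 in the highest and 5 in the lowest quintile, with medians of −0.84 and −0.53. Chromosomes 4 and 2, which had the highest window values, thus lay on opposite sides of the score.

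Contacts among distal windows had the same value to 2 decimals once compartment score was matched. When the expected value was multiplied by what the same pair of score quintiles showed in the rest of the map, the value was 1.07 (1.05 to 1.08, exact Poisson p = 1.62e-16). Pairs of distal bins in the same quintile had 1.06 (1.02 to 1.09) on this scale and those in different quintiles 1.07 (1.05 to 1.09). Before matching, distal bins of the highest quintile met each other at 1.21 (1.14 to 1.27), against 1.20 for other pairs of that quintile. Distal bins of the second lowest quintile met at 1.22 (1.10 to 1.34), against 1.03, and those of the lowest with the middle quintile at 1.13 (1.08 to 1.19), against 1.01. Distal bins of the lowest and highest quintiles met across at 0.932 (0.891 to 0.975), against 0.868. An excess over the rest of the map was not seen in every pair of quintiles. The lowest met the second highest at 0.947 (0.888 to 1.01), against 0.967, and the middle met the highest at 0.976 (0.930 to 1.02), against 0.973.

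Inside a window, bins of the same autosome met more than expected at short separation. Under the reading of the map as Cast with 129, these would join the homologous ends. The map gives no rate of ends assigned to the wrong parent, so contacts within 1 chromosome copy cannot be told apart from these. Distal bins 1 Mb apart had 222 contacts where 150.4 were expected, a value of 1.48 (1.29 to 1.68, exact Poisson p = 5.87e-08). At 2 Mb the value was 1.33 (1.14 to 1.55), from 3 to 5 Mb 1.21 (1.09 to 1.34) and from 6 to 11 Mb 1.04 (0.904 to 1.18). Inner bins had 1.47 (1.41 to 1.54) at 1 Mb, 1.15 (1.09 to 1.21) at 2 Mb and 1.06 (1.03 to 1.10) from 3 to 5 Mb. Distal over inner was 1.00 (0.868 to 1.15) at 1 Mb. From 2 to 11 Mb it was 1.09 (1.02 to 1.18, exact conditional binomial p = 0.0171, adjusted over the 12 tests 0.0293), with 754 contacts in the windows. At 2 Mb the ratio was 1.16 (0.987 to 1.36) and from 3 to 5 Mb 1.13 (1.01 to 1.26). From 6 to 11 Mb it was 0.995 (0.866 to 1.14), where inner bins had 1.04 (1.02 to 1.07). With the stricter bin filter the ratio from 2 to 11 Mb was 1.06 (0.981 to 1.15) and no longer passed. Proximal windows had 1.51 (1.27 to 1.78) at 1 Mb, 1.42 (1.17 to 1.71) at 2 Mb and 1.20 (1.08 to 1.33) from 2 to 11 Mb, where distal windows had 1.18 (1.09 to 1.26). The difference between distal and proximal windows was not tested here, and their intervals overlap.

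**Figure D5:**
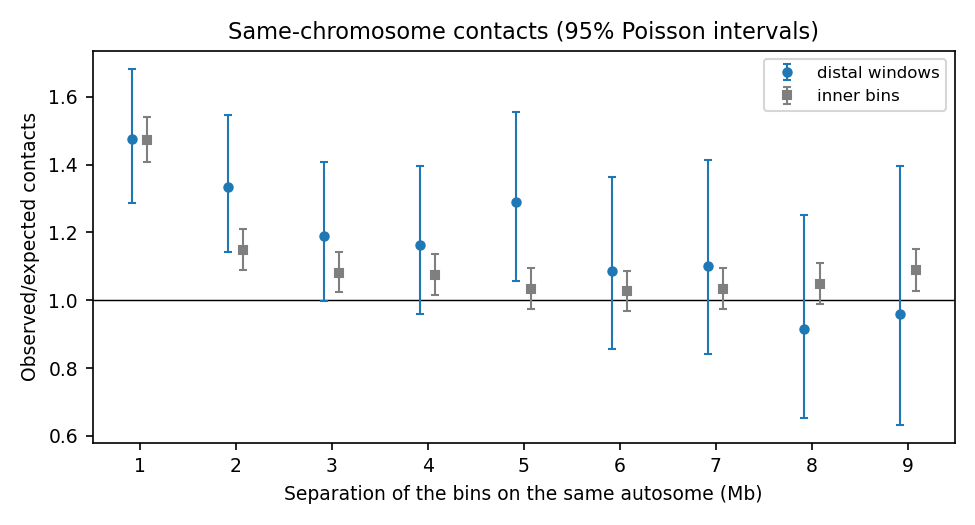
Observed/expected contacts (y axis) between bins of the same autosome by their separation (x axis), for distal windows (circles) and inner bins (squares); bars are 95% Poisson intervals. Both start near 1.48 at 1 Mb, and the distal values from 2 to 5 Mb lie above the inner ones, with intervals that overlap at each separation.

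The same-chromosome excess was compared with pairs of distal bins on different autosomes whose distance from the end differed by as much. These met at 1.06 (1.02 to 1.10) at 1 Mb and 1.07 (1.05 to 1.09) from 2 to 11 Mb. Same-chromosome contact was 1.39 times as high at 1 Mb (1.21 to 1.60) and 1.10 times from 2 to 11 Mb (1.02 to 1.18). Over separations of 1 to 11 Mb, 18 of 19 autosomes had a value above 1, with an interval above 1 for 7. The highest were chromosome 12 with 52 contacts and 1.53, chromosome 11 with 72 and 1.45 and chromosome 9 with 50 and 1.41, each with an interval above 1. The lowest was chromosome 18 with 37 and 0.853 (0.601 to 1.18). With the proximal window of its own chromosome a distal window had 0.955 (0.901 to 1.01), which was 1.02 times its value with proximal windows of other autosomes (0.961 to 1.08).

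Genes at the ends can be named by order alone, from RefSeq's GRCm38.p6 annotation, since its coordinates do not apply to mm9. The most distal protein-coding gene there was Cr2, a complement receptor of B cells, on chromosome 1. It was Wls, which carries Wnt proteins to the cell surface, on chromosome 3 and Rfc3, a subunit of the replication factor C clamp loader, on chromosome 5. Vomeronasal receptor genes stood last on chromosome 4 (Vmn2r129) and chromosome 10 (Vmn2r87). Mrgprd, a receptor of sensory neurons, was last on chromosome 7, Fgf14, a fibroblast growth factor homologue that binds sodium channels, on chromosome 14, and Csf2ra, a subunit of the GM-CSF receptor, on chromosome 19. On chromosomes 9, 11, 12, 13 and 15 these were Ppp2r3d, Gm9631, Tmem196, Tcstv3 and Mucl2, and on chromosomes 2, 6, 8, 16, 17 and 18 Gm14496, Gm21814, Gm32856, B230307C23Rik, Gm20939 and Gm45871. Whether each lies in the outermost kept bin was not tested.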

How the data were processed

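Hi-C contacts were read from 1 pooled map. The authors deposited a signal per pair of 1 Mb bins, balanced so that bins have about the same sum, and a key of bin positions. HiC-Pro 2.7.8, bedtools and mm9 are named per the submitters' processing notes, without roles. Not given in the sources used here are the aligner, the read filters and which libraries were pooled. Balancing removes coverage differences between bins, so coverage was read from recovered counts. Each deposited signal was divided by bin factors, and all 1365118 listed pairs came out whole within 0.01, giving 1955524 contacts between different bins. Bins under 50% of the median of 1087 partners on other chromosomes were left out, which kept 2341 of 2666. Unlisted pairs counted as 0. Expected values were fitted to totals that include the tested contacts, which slightly understates a raised value. Sums were tested with exact Poisson or conditional binomial tests, with Benjamini-Hochberg adjustment over the pairs, the bins, the windows of single autosomes or the 12 summary tests. Read pairs are not independent molecules where PCR copied them. Named items are the 3 highest and lowest windows, 5 highest and lowest chromosome pairs, 10 highest and 5 lowest bins, 5 bin pairs of lowest p, and called items. Members and comparisons were chosen with earlier results of these data known. Alternatives were the balanced signal, listed pairs alone, no filter, a filter at 80%, expected values scaled to each chromosome pair, other windows, no last bins, other score classes and each autosome left out. Steps were tested on simulated data. Software was numpy 2.4.6, pandas 2.3.3 and scipy 1.17.1 under Python 3.11.15. Positions are mm9, counted from 1.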

Additional observations from a re-analysis of the deposited data

Results flagged for a closer look

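Contacts with both ends in the same bin were not used in the comparisons. The kept distal bins held 326 of them, in 133 of 203 bins, an observed/expected of 3.83 (3.42 to 4.27, Poisson). Expected here means 50% of the squared bin factor. Inner bins had 3.15 (3.02 to 3.29), and distal over inner was 1.21 (1.08 to 1.36). Their part in the contacts between neighbouring bins was not tested. The distal bins left out for low coverage held a further 7479 contacts. In 24 of these 25 bins the number ran from 17 to 604 with a median of 306, and 1 held none.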

How the results depend on the processing

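Of 155 values under an alternative setting, 136 stayed on the same side of the threshold or within the counting interval. Listed pairs alone turned the value among distal windows to 0.933 and distal over inner to 0.941. This setting drops every pair with no contact, and distal bins had fewer such pairs (45.9%) than the map (52.7%). It also gave 0.948 with inner bins, 0.877 for distal over proximal, 1.42 for the outer over the inner 3 Mb and 0.953 for like over unlike distance. Outer over inner 3 Mb was 1.11 in the balanced signal, 1.06 with no bin filter, 1.03 with the filter at 80% and 1.02 without last bins. In the balanced signal the same-chromosome value at 1 Mb was 1.86 and its ratio to inner bins 1.18; the cause was not tested. With the filter at 80% the ratio of distal to inner bins at 2 to 11 Mb was 1.06. Windows of 5 Mb gave 0.964 with proximal windows, no longer past the threshold, and distal over proximal became 0.824, then 0.975 with 15 Mb and 0.978 with 20 Mb, all past it. With 20 Mb the value with inner bins was 0.996, past the threshold. Called chromosome pairs numbered 4, against 2 with 10 Mb, 1 with 15 Mb, 5 with no bin filter, 5 with the filter at 80% and 6 without last bins. The value among the 5 longest autosomes was 1.35, 1.16 and 1.11 with 5, 15 and 20 Mb, alternatives chosen after seeing the data. Leaving out each of the 19 autosomes changed no call of the 12 tested summaries, and the value among distal windows ran from 1.06 to 1.07. No paired analysis was possible because the 1 pooled map names no library. Depth limits single pairs and bins, and no interval covers the spread between embryos.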
